A study of Mus musculus with 3 samples.

Results

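The genes described here are the 67 histone genes whose symbols begin with Hist1h, Hist2h, Hist3h or Hist4h, out of 32285 genes counted. They were chosen by symbol alone. Of them, 54 belong to the Hist1 cluster on chromosome 13, 10 to Hist2 on chromosome 3, 2 to Hist3 on chromosome 11 and 1 to Hist4 on chromosome 6. By the protein they encode, 6 are H1, 18 H2A, 18 H2B, 12 H3 and 13 H4 genes. Single cells came from normal embryos of the ARC mouse strain during gastrulation, when epiblast cells pass through the primitive streak and become mesoderm and endoderm. There were 3 libraries, 1 per group: cells of the embryo at embryonic day 7.0 (E7.0), cells of the embryo at E7.25, and cells of the posterior region at E7.5 (E7.5 posterior). Cells were freed with trypsin and captured on a 10x Chromium chip, 1 channel per library, and the number of embryos pooled and the version of the 3′ kit in each library were not given in the sources used here. Stage, library and, at E7.5, dissected region cannot be told apart.

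Histones H2A, H2B, H3 and H4 form the core that DNA is wound around in the nucleosome, and H1 is the linker histone that binds where DNA enters and leaves it. The genes of the Hist clusters are mostly replication-dependent: they lack introns, are transcribed in S phase together with DNA synthesis, and make mRNAs that end in a conserved stem-loop, bound by the protein SLBP, in place of a poly(A) tail. A protocol that primes on poly(A) therefore counts the histone RNA that it captures, which need not be proportional to all of it. Embryos at gastrulation contain some of the fastest dividing cells of mouse development.

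The stem-loop was looked for in the annotated transcripts after the stop codon and was present in 46 of the 67 genes. For the other 21, it is not in the annotation used, which for 15 of them ends within 16 bases of the stop codon. Its most frequent form was found in 26 genes, another in 7 and another in 6. The sequences of 7 members that the results turn on follow, to show how alike this element is in genes whose levels differ, as DNA on the strand of the gene, 5′ to 3′, from the GENCODE M21 transcripts on GRCm38, with the 16 bases of the stem-loop in capitals and flanking bases in lower case. The coordinates are those of the capitals.
Hist1h2ap, chr13:21833029-21833044, minus strand: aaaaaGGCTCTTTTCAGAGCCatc
Hist1h2ae, chr13:23570668-23570683, minus strand: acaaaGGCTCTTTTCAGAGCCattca
Hist1h1e, chr13:23621782-23621797, minus strand: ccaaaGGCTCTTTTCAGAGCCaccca
Hist1h4d, chr13:23581950-23581965, plus strand: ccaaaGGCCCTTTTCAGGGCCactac
Hist1h3c, chr13:23745047-23745062, minus strand: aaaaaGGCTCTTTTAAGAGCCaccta
Hist1h4i, chr13:22040966-22040981, minus strand: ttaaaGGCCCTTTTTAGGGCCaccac
Hist3h2ba, chr11:58949349-58949364, plus strand: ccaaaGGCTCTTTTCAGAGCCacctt
The Hist1h2ap annotation ends 3 bases after its stem-loop. That of Hist1h2ae goes on for 151 bases, Hist3h2ba for 169, Hist1h4i for 330, Hist1h4d for 770 and Hist1h1e for 1153. Over all members, 23 had more than 100 annotated bases after the stem-loop, where a poly(A) site could lie, though length alone does not give one. A poly(A) signal motif followed the stem-loop in Hist1h2ae, Hist3h2ba, Hist1h4i and Hist1h4d. None followed it in Hist1h1e, nor in Hist2h3c2, Hist1h3f, Hist1h3e, Hist1h2bg, Hist1h3d and Hist1h4c, which are also among the 23. Hist1h4h had the motif within the 46 bases after its stem-loop.

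Promoters of 62 of the 67 genes were matched in RefSeq (GRCm38.p6), and 4 motifs were searched on both strands in the 250 bases before the start. CCAAT, bound by the factor NF-Y, was in 51 of the 62 promoters (82.3%) against 34.5% of all 27025 promoters in the table. It was in all 6 H1, all 18 H2A and all 16 H2B promoters, in 8 of 10 H3 promoters and in 3 of 12 H4 promoters. TATAAA was in 29 (46.8%, against 13% of all promoters). ATTTGCAT, the octamer bound by POU factors, was in 13 (21%, against 1.61%), of which 7 were H2A and 6 H2B genes. AAACACA, a motif described in H1 promoters, was in 9 (14.5%, against 6.22%), of which 5 were H1 genes. A match is a description of letters in the window, not a bound site. The 150 bases before the start of 4 members are shown, 5′ to 3′ on the strand of the gene, to set a leading H1, H2A and H4 gene beside the H2B gene whose level differed between classes of cells, with matches to the 4 motifs on either strand in capitals.
Hist1h1b, chr13:21780626-21780775, minus strand: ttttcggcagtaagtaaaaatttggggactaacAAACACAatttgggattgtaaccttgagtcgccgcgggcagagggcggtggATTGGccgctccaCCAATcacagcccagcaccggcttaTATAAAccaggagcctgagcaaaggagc
Hist1h2ap, chr13:21833476-21833625, minus strand: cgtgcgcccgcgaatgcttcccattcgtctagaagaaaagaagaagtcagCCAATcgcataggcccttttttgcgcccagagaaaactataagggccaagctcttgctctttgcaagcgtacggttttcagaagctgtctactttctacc
Hist1h4d, chr13:23581418-23581567, plus strand: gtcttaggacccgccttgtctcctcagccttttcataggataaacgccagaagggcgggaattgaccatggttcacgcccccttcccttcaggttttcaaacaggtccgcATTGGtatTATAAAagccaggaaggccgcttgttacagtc
Hist3h2ba, chr11:58948761-58948910, plus strand: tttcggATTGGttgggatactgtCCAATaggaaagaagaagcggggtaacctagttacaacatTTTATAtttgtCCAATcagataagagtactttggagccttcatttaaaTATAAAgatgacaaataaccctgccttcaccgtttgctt

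Cells with at least 1000 detected genes and no more than 10% mitochondrial counts were kept: 7941 at E7.0, 5194 at E7.25 and then 8438 at E7.5 posterior. They held 108350108, 47672673 and 87940979 unique molecular identifiers (UMIs, each marking 1 captured RNA molecule), with a median of 11295, 8298 and 9254.5 per cell. The libraries shared between 8 and 22 cell barcodes in each pair. All levels are UMIs per 1000000 UMIs of the library or class (CPM), so they count molecules and do not scale with transcript length. Intervals are exact 95% intervals and cover counting error only, so they say nothing of the spread between embryos.

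Histone RNA was highest at E7.0. The 67 genes together held 295103 UMIs at E7.0, or 2724 CPM (2714 to 2733), 51717 UMIs at E7.25, or 1085 CPM (1075.5 to 1094), and 79133 UMIs at E7.5 posterior, or 899.8 CPM (893.6 to 906.1). The sum was thus lower at E7.25 than at E7.0 by a log2 ratio of -1.33 (-1.34 to -1.31), lower at E7.5 posterior than at E7.25 by -0.27 (-0.29 to -0.25) and lower at E7.5 posterior than in the E7.0 library by -1.60 (-1.61 to -1.59). The DNA replication clamp Pcna did not follow this order, at 183 CPM, 157 CPM and 225 CPM at E7.0, E7.25 and then E7.5 posterior. Mki67, a marker of dividing cells, stood at 139, 172 and 141 CPM. The difference was also seen in the median cell. With each cell thinned to 5000 UMIs, the median cell held 13 histone UMIs at E7.0, 5 at E7.25 and then 4 at E7.5 posterior, and the mean was 14.3, 5.62 and 4.57. Thinning left out 614, 509 and 774 shallower cells. Cells with over 30 histone UMIs made up 7.03% at E7.0 (515 of 7327), while 0 of 4685 cells at E7.25 and 0 of 7664 at E7.5 posterior had so many, which allows shares of up to 0.064% and 0.0391%. Cells with no histone UMI were 2.27% of cells at E7.0, 9.39% at E7.25 and then 9.29% at E7.5 posterior.

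**Figure D1:**
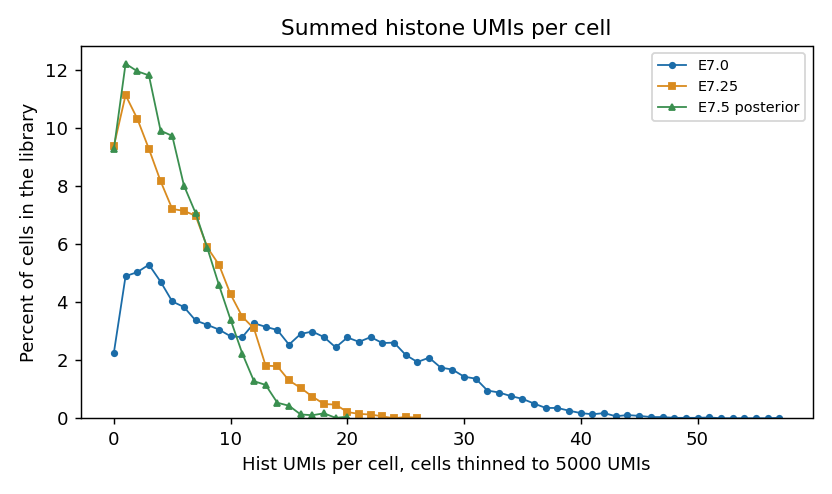
Histone UMIs per cell after thinning each cell to 5000 UMIs, as the percent of cells of the library at each value, with 1 line per library. The E7.0 line extends to 57 UMIs, while the E7.25 line ends at 26 and the E7.5 posterior line at 20.

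Of the 5 histone types, 4 had the same order of libraries and H2A another. H1 genes, the linker histones, stood at 779, 396 and 242 CPM at E7.0, E7.25 and then E7.5 posterior. H2A genes stood at 1249, 246 and 369 CPM, so that E7.25 was the lowest library for this type. Of these sums Hist1h2ap alone made up 737, 46.8 and 180.4 CPM, and the other H2A genes together were lowest at E7.5 posterior. H2B genes stood at 194, 156 and 114 CPM, H3 genes at 183, 156 and 68.3 CPM, and H4 genes at 319, 132 and 107 CPM. In the E7.25 over E7.0 comparison H2A was lowest, at a log2 ratio of -2.34 (-2.37 to -2.32), and H3 closest to 0, at -0.23 (-0.27 to -0.19). In the E7.5 posterior over E7.25 comparison the order turned, with H2A at 0.58 (0.55 to 0.61) and H3 at -1.19 (-1.24 to -1.14). H2A accounted for 45.9% of histone UMIs at E7.0, 22.7% at E7.25 and then 41.0% at E7.5 posterior. Most of that swing was Hist1h2ap, which held 27.1%, 4.31% and 20.05% of all histone UMIs in the 3 libraries.

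By gene cluster, Hist1 stood at 2539.5, 959 and 796 CPM at E7.0, E7.25 and then E7.5 posterior, and Hist2 at 139.6, 86.6 and 52.6 CPM. The 2 Hist3 genes, at 37.9, 32.2 and 45.8 CPM, were highest at E7.5 posterior. Hist4h4, the single Hist4 gene, stood at 6.62, 7.13 and 5.42 CPM. The Hist1 genes lie in 2 blocks of chromosome 13. The block of 23 genes that holds Hist1h2ap and Hist1h1b stood at 1343 CPM at E7.0, 379 at E7.25 and then 378 at E7.5 posterior. The block of 31 genes that holds Hist1h2ae, Hist1h1e and Hist1h4d stood at 1197, 579.6 and 418 CPM. Genes with more than 100 annotated bases after the stem-loop stood at 1013, 484 and 407 CPM, those with a shorter tail at 1083, 255 and 306 CPM, and those with no annotated stem-loop at 627, 347 and 187 CPM. In all 3 sets E7.0 was highest. Hist1h2ap, at 737, 46.8 and 180.4 CPM, is in the block of 23 genes and in the set with a shorter tail. Without it, the rest of that block and the rest of that set were each lower at E7.5 posterior than at E7.25.

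A small number of genes carried most of the signal, and 17 of the 67 reached 20 CPM in at least 1 library. The 5 leading genes, Hist1h2ap, Hist1h1b, Hist1h2ae, Hist1h1e and Hist1h4d, held 70.2% of histone UMIs at E7.0, 46.0% at E7.25 and then 57.7% at E7.5 posterior. Of the other 50 genes, the highest value was 19.7 CPM, and 10 stayed under 1 CPM in every library. Hist1h2bq had 0 UMIs at E7.25 and Hist1h4m had 0 at E7.25 and E7.5 posterior, where 3 UMIs would be 0.0629 and 0.0341 CPM. These low counts include copies that cannot be separated well: 19 members share a run of 50 identical bases near the 3′ end with another member. Hist1h2ap shares one with Hist1h2ao (0.148, 0.273 and 0.091 CPM at E7.0, E7.25 and then E7.5 posterior), and Hist1h3e with Hist1h3f, so their split is uncertain.

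**Figure D2:**
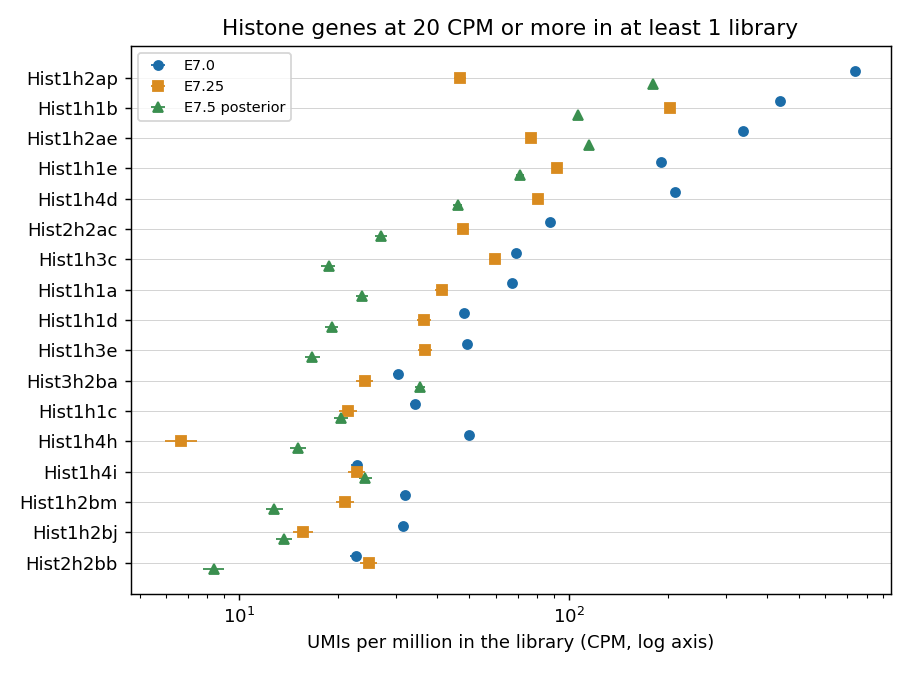
CPM (log axis) of the 17 histone genes that reached 20 CPM in at least 1 library, with 1 symbol per library and bars for the exact 95% Poisson interval. E7.0 is the rightmost symbol for most genes, while the 3 symbols of Hist1h4i lie within 2 CPM of each other and Hist3h2ba is highest at E7.5 posterior.

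The H1 genes had their highest value at E7.0. Hist1h1b (ENSMUSG00000058773, chromosome 13, 21779883 to 21780625 on GRCm38, minus strand, 1 exon) stood at 436 CPM at E7.0, 203 CPM at E7.25 and then 107 CPM at E7.5 posterior. Hist1h1e (ENSMUSG00000051627, chromosome 13, 23620629 to 23622558, minus strand, 1 exon) stood at 190.4, 92.4 and 71.2 CPM. Each of the 5 H1 genes at 20 CPM or more was highest at E7.0, and its value at E7.5 posterior was the lowest, which for Hist1h1c was not resolved from E7.25 (log2 ratio -0.07, -0.18 to 0.04). Hist1h1a stood at 67.4, 41.2 and 23.6 CPM, Hist1h1d at 48.2, 36.4 and 19.09 CPM, and Hist1h1c at 34.1, 21.4 and 20.4 CPM. The remaining H1 gene, Hist1h1t, which encodes the linker histone of the testis, stood at 2.34, 1.62 and 0.989 CPM. Hist1h1e overlaps Hist1h2be on the same strand, so reads of the shared stretch could be counted for either or for neither.

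The H2A genes differed most between libraries. Hist1h2ap (ENSMUSG00000094777, chromosome 13, 21833026 to 21833507, minus strand, 1 exon) stood at 737 CPM at E7.0, 46.8 CPM at E7.25 and then 180.4 CPM at E7.5 posterior. Its E7.25 over E7.0 log2 ratio of -3.98 (-4.04 to -3.92) was the lowest of all 5585 genes measured in that comparison. Hist1h2ae (ENSMUSG00000069272, chromosome 13, 23570517 to 23571220, minus strand, 1 exon) stood at 338, 76.7 and 115 CPM, with E7.25 again lowest. Hist2h2ac, of the Hist2 cluster, followed the H1 order instead, at 87.7, 47.7 and 27.0 CPM.

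The 3 H4 genes at 20 CPM or more differed in pattern. Hist1h4d (ENSMUSG00000061482, chromosome 13, 23581598 to 23582735, plus strand, 1 exon) stood at 209.6 CPM at E7.0, 80.5 CPM at E7.25 and then 46.1 CPM at E7.5 posterior. Hist1h4h had its lowest value at E7.25, as the leading H2A genes did, at 49.7, 6.69 and 15.1 CPM. Hist1h4i (ENSMUSG00000060639, chromosome 13, 22040636 to 22041362, minus strand, 1 exon) was nearly level at 22.8, 22.7 and 24.2 CPM, and the interval of its E7.25 over E7.0 ratio spans 0 (-0.11 to 0.10). All 3 encode the same core histone.

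The 2 H3 genes at 20 CPM or more were lowest at E7.5 posterior, with smaller differences between E7.25 and E7.0. Hist1h3c stood at 69.1, 59.6 and 18.7 CPM and Hist1h3e at 49.1, 36.6 and 16.7 CPM. Among the H2B genes at 20 CPM or more, Hist1h2bm stood at 31.8, 20.98 and 12.8 CPM, Hist1h2bj at 31.5, 15.6 and 13.7 CPM and Hist2h2bb at 22.6, 24.8 and 8.38 CPM. Hist2h2bb overlaps the annotated genes Gm20628 and Gm42743, so its count is uncertain. Hist3h2ba (ENSMUSG00000056895, chromosome 11, 58948920 to 58949533, plus strand, 1 exon) was the one of these with its highest value in the latest library, at 30.4, 24.04 and 35.5 CPM.

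In each comparison the measured members had a lower median log2 ratio than all genes. At E7.25 over E7.0, 7 of the 17 measured members were at least 2-fold lower and 0 at least 2-fold higher, while 1.52% and 2.78% of all 5585 measured genes were. The members' median log2 ratio was -0.71 and that of all genes 0.12. The 7 were Hist1h2ap, Hist1h4h, Hist1h2ae, Hist1h4d, Hist1h1b, Hist1h1e and Hist1h2bj. At E7.5 posterior over E7.25, 3 of 15 members were at least 2-fold lower (Hist1h3c, Hist2h2bb and Hist1h3e) and 1 was higher (Hist1h2ap), beside 3.29% lower and 1.01% higher of 5625 genes, with medians of -0.80 for the members and -0.09 for all genes. At E7.5 posterior over E7.0, 14 of 17 members were at least 2-fold lower and 0 higher, beside 1% lower and 0.568% higher of 5283 genes. They were 14 of the 53 genes 2-fold lower in that comparison, and the members' median was -1.51 against 0.01 for all genes. The 3 within 2-fold were Hist1h1c (-0.74, -0.83 to -0.66), Hist1h4i (0.09, 0.00 to 0.17) and Hist3h2ba (0.22, 0.15 to 0.30). The 3 comparisons share libraries and are not independent of each other. A member counted as measured at 20 CPM or more in 1 of the 2 libraries, so it may have been kept through the library in which it was high. The 3 lower at E7.5 posterior over E7.25 reached 20 CPM at E7.25 alone. At E7.25 over E7.0, Hist1h4h and Hist1h2bj reached it at E7.0 alone. At E7.5 posterior over E7.0 the same held for Hist1h3c, Hist1h1d, Hist1h3e, Hist1h4h, Hist1h2bm, Hist1h2bj and Hist2h2bb. Nothing is read from these calls, and the medians are given as a description.

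**Figure D3:**
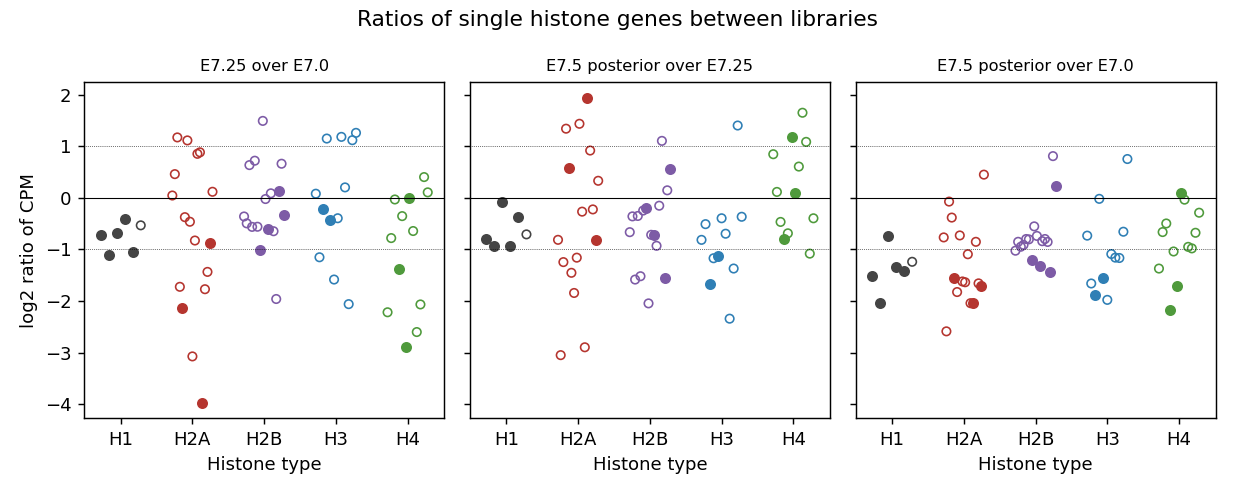
Log2 ratios of CPM between libraries for each histone gene with 10 or more UMIs in both, by histone type, with filled circles for genes at 20 CPM or more in at least 1 library and open circles for the others. Dotted lines mark a 2-fold difference. Points spread between -3.98 and 1.49 at E7.25 over E7.0, and most lie under 0 at E7.5 posterior over E7.0.

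With lower counts included, the direction was less uniform. Among members with 10 or more UMIs in both libraries, 42 of 63 had a lower value at E7.25 than at E7.0, 44 of 61 a lower value at E7.5 posterior than at E7.25, and 56 of 61 a lower value at E7.5 posterior than in the E7.0 library. These shares are 66.7%, 72.1% and 91.8%, beside 31.8%, 58.8% and 39.2% of all genes with as many UMIs. With no CPM minimum, 7 of 65 members with a UMI in both libraries were at least 2-fold higher and 18 lower at E7.25 over E7.0, beside 18.4% higher and 2.76% lower of all such genes. At E7.5 posterior over E7.25, 8 of 65 were higher and 18 lower, beside 3.14% and 8.91%, and at E7.5 posterior over E7.0, 0 of 66 were higher and 31 lower, beside 7.22% and 3.06%. The next 5 genes lie below 20 CPM and were chosen after their values were seen, to show the spread. Hist1h3d stood at 7.91 CPM at E7.0, 17.6 CPM at E7.25 and then 7.81 CPM at E7.5 posterior. Hist1h2ac stood at 6.41, 14.5 and 6.11 CPM, so both were highest at E7.25. Hist1h4a stood at 15.2, 3.27 and 5.89 CPM and Hist2h2aa1 at 16.5, 4.85 and 9.17 CPM, lowest at E7.25. Hist3h2a, the other Hist3 gene, stood at 7.53, 8.18 and 10.3 CPM, and overlaps Trim17 on the same strand.

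Transcript length moved with the ratios over E7.0. The median longest transcript of the 17 members at 20 CPM is 704 bases, against 3114 bases for all genes at that level. Genes under 700 bases had a median log2 ratio of -0.19 at E7.25 over E7.0, and genes of 3000 bases or more a median of 0.19. At E7.5 posterior over E7.0 these medians were -0.11 and 0.05. At E7.5 posterior over E7.25 they were 0.11 and -0.12. The members' medians were -0.71 at E7.25 over E7.0, -1.51 at E7.5 posterior over E7.0 and -0.80 at E7.5 posterior over E7.25. The part of length in the members' ratios was not tested.

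Histone genes outside the clusters and genes of histone supply stayed within 2-fold, as did most genes. Of all measured genes, 2.78% were 2-fold higher and 1.52% lower at E7.25 over E7.0. These shares were 1.01% and 3.29% at E7.5 posterior over E7.25, and 0.568% and 1% at E7.5 posterior over E7.0. Lists of this size would hold few such genes in any case, so nothing is read from the counts below. The list of replication-independent histones holds 11 genes outside the clusters. Most of these make polyadenylated mRNA through the cell cycle, and Cenpa is also on the list of G2 and M phase genes. Of the 11, 0 were 2-fold higher or lower in any of the 3 library comparisons. H3f3a, a gene of the H3.3 variant, stood at 1488 CPM at E7.0, 1012 CPM at E7.25 and then 1734 CPM at E7.5 posterior, and H2afz, of the H2A.Z variant, at 3236.5, 2349.5 and 3369 CPM. Other genes of the list were highest at E7.25. H2afj stood at 189, 275 and 197 CPM, H2afy at 101, 152 and 125 CPM, and H1fx at 70.7, 118 and 65.1 CPM. The median of these 11 genes was -0.33 (range -0.56 to 0.74) at E7.25 over E7.0, 0.40 at E7.5 posterior over E7.25, and 0.06 (range -0.12 to 0.30) at E7.5 posterior over E7.0. Of 13 measured genes of histone transcription and 3′ end processing, 0 passed 2-fold in any comparison. Slbp, the stem-loop binding protein, stood at 143, 148 and 172 CPM, and Lsm1, of the decay machinery, at 86.2, 59.8 and 84.8 CPM. Of 14 histone chaperone genes 0 passed 2-fold. Chaf1b, of the CAF-1 complex that deposits new H3 and H4, stood at 55.9, 93.8 and 70.2 CPM, and Asf1a at 115, 80.8 and 105 CPM. Of 38 measured S phase genes 0 passed 2-fold, with medians of 0.01, -0.02 and 0.08 in the order of the comparisons above. Of 50 measured genes of G2 and M phase, 1 was 2-fold lower at E7.25 than at E7.0 and 1 higher at E7.5 posterior than in the E7.25 library. Both were Cks2, a subunit of cyclin-dependent kinases, at 369, 179 and 362 CPM. Of 49 measured at E7.5 posterior over E7.0, 0 passed 2-fold.

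Within each library, cells with more Pcna held more histone RNA. Cells thinned to 5000 UMIs were split by their Pcna UMIs. At E7.0 the mean was 19.2 histone UMIs (18.5 to 19.9) in 142 cells with 4 or more Pcna UMIs, against 12.8 (12.69 to 12.95) in 2940 cells with 0, a log2 ratio of 0.58 (0.53 to 0.64). At E7.25 it was 7.48 (6.83 to 8.17) in 65 cells with 4 or more, against 5.11 (5.01 to 5.202) in 2154 cells with 0, a log2 ratio of 0.55 (0.42 to 0.68). At E7.5 posterior it was 5.40 (5.14 to 5.67) in 304 cells with 4 or more, against 4.13 (4.05 to 4.21) in 2591 cells with 0, a log2 ratio of 0.39 (0.31 to 0.46). The bins between lay between these values in each library. Among types, H1 genes had the highest ratio at E7.0 (0.72, 0.62 to 0.82) and E7.5 posterior (0.52, 0.38 to 0.67), and H3 genes at E7.25 (0.83, 0.49 to 1.15). The intervals of the types overlap in most cases. The H4 ratios were 0.34 (0.17 to 0.51), 0.38 (-0.06 to 0.78) and 0.24 (0.01 to 0.47) at E7.0, E7.25 and then E7.5 posterior.

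**Figure D4:**
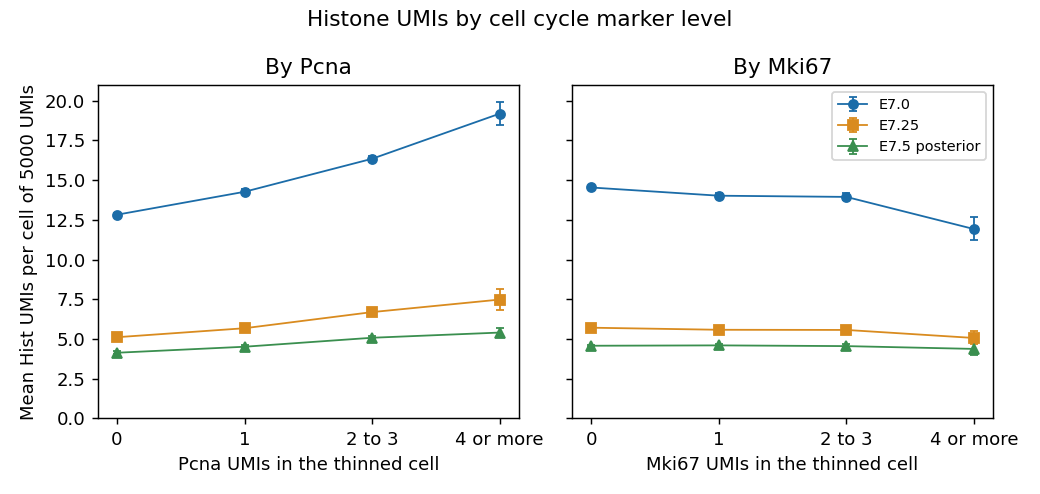
Mean histone UMIs per cell thinned to 5000 UMIs, by the number of Pcna UMIs (left) and Mki67 UMIs (right) in the same thinned cell, with 1 line per library and bars for the exact 95% Poisson interval. The Pcna lines climb to 19.2, 7.48 and 5.40 in the highest bin at E7.0, E7.25 and then E7.5 posterior, and the Mki67 lines end at 11.9, 5.06 and 4.37.

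Most measured members had ratios above 0. Hist1h1b averaged 3.66 UMIs per cell at 4 or more Pcna UMIs and 2.004 at 0 in the E7.0 library, a log2 ratio of 0.87, and its ratio was 0.57 at E7.25 and then 0.89 at E7.5 posterior. Hist1h2ap gave 0.52, 0.56 and 0.49 in the 3 libraries, Hist1h2ae 0.60, 0.77 and 0.45, and Hist1h3c 0.99, 1.12 and 0.32. Hist1h4d gave 0.37, 0.22 and 0.06. At E7.0, 1 of 20 measured members was at least 2-fold higher in the Pcna-high cells (Hist2h2bb) and 0 lower, beside 0.321% higher and 1.74% lower of all genes. At E7.25, 5 of 23 were higher and 1 (Hist1h1c) lower, beside 2% and 6.58%, but 4 of the 5 rest on 7 to 10 UMIs in the 65 cells and reached 20 CPM in the Pcna-high cells alone, and the lower call rests on 3 UMIs with an interval that spans 0 (-1.19, -3.48 to 0.37) and reached 20 CPM in the cells with 0 Pcna UMIs alone. Such members had to differ to be counted, so nothing is read from this count. At E7.5 posterior 0 of 11 passed in either direction, beside 0.0375% higher and 0.356% lower. The medians over measured members were 0.50, 0.60 and 0.44 at E7.0, E7.25 and then E7.5 posterior, where those over all genes were 0.00, -0.02 and 0.00. These medians are given as a description, since some of the measured members passed the minimum in 1 of the 2 sets of cells. The S phase list, taken without Pcna, had medians of 0.28, 0.30 and 0.19, and the replication-independent histones medians of 0.03, 0.03 and -0.03.

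With Mki67 the direction was the opposite at E7.0. At E7.25 the ratio was below 0 in most settings but not in all, and at E7.5 posterior its direction was not resolved. At E7.0 the mean was 11.9 histone UMIs (11.2 to 12.7) in 88 cells with 4 or more Mki67 UMIs, against 14.5 (14.4 to 14.7) in 3976 cells with 0, a log2 ratio of -0.29 (-0.38 to -0.20). At E7.25 it was 5.06 (4.67 to 5.47) in 122 cells with 4 or more, against 5.70 (5.61 to 5.80) in 2223 cells with 0, a log2 ratio of -0.17 (-0.29 to -0.06), but cells thinned to 3000 UMIs gave 0.01 (-0.31 to 0.31). At E7.5 posterior it was 4.37 (3.98 to 4.78) in 106 cells with 4 or more, against 4.57 (4.50 to 4.63) in 4157 cells with 0, and the interval of the ratio spans 0 (-0.06, -0.20 to 0.07), also at 3000 UMIs (0.21, -0.13 to 0.53). Of the measured members, 1 of 19 at E7.0 (Hist1h2ak), 1 of 15 at E7.25 (Hist3h2ba) and then 2 of 12 at E7.5 posterior (Hist3h2ba and Hist2h2ac) were at least 2-fold lower in the Mki67-high cells and 0 higher, beside 1.12%, 0.455% and 1% lower and 3.53%, 3.52% and 3.04% higher of all genes. Each of these 4 calls rests on 4 or 7 UMIs in the Mki67-high cells and reached 20 CPM in the cells with 0 Mki67 UMIs alone, so nothing is read from them. Hist1h1e had the highest ratio of the measured members at E7.5 posterior, with 0.557 UMIs per cell at 4 or more Mki67 UMIs and 0.335 at 0, a log2 ratio of 0.73 (0.33 to 1.11), while its ratio was -0.20 (-0.54 to 0.13) at E7.0 and 0.19 (-0.19 to 0.55) at E7.25. Hist1h1d (0.35), Hist1h1c (0.12) and Hist1h4i (0.04) also had ratios above 0 at E7.5 posterior, each with an interval that spans 0.

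The cells were also split by both markers. At E7.0, cells with 2 or more Pcna UMIs held 16.8 histone UMIs (16.6 to 17.1) where Mki67 was 0 and 15.5 (15.06 to 15.997) where Mki67 was 2 or more. Cells with 0 Pcna UMIs held 12.5 (12.2 to 12.8) where Mki67 was 2 or more and 12.996 (12.82 to 13.18) where both were 0. At E7.25 these 4 values were 6.84, 7.31, 4.96 and 5.14, and at E7.5 posterior 5.23, 4.84, 4.14 and 4.06. Cells with 2 or more Pcna UMIs were higher than cells with 0 in all 3 libraries at either Mki67 level.

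The difference between libraries was present within each Pcna bin. For E7.25 over E7.0 the log2 ratio lay between -1.36 and -1.29 over the 4 bins. For E7.5 posterior over E7.25 it lay between -0.47 and -0.31, and for E7.5 posterior over E7.0 between -1.83 and -1.64. The E7.0 cells with 0 Pcna UMIs, at 12.8 histone UMIs, stood above the Pcna-high cells of E7.25, at 7.48, and of E7.5 posterior, at 5.40. Cells with 0 Pcna UMIs made up 40.1%, 46.0% and 33.8% of thinned cells at E7.0, E7.25 and then E7.5 posterior. At this depth many of them may still express Pcna. The bins therefore sort cells by Pcna only loosely, and no conclusion is drawn from the ratios within them.

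How closely members varied together from cell to cell is described by Pearson's r between a member and the sum of the others, on log values of thinned cells, which share a library and a fixed depth. Over 7327, 4685 and 7664 cells at E7.0, E7.25 and then E7.5 posterior, r was 0.70, 0.26 and 0.38 for Hist1h2ap, 0.65, 0.46 and 0.34 for Hist1h1b and 0.64, 0.34 and 0.35 for Hist1h2ae. It was 0.08, 0.08 and 0.09 for Hist3h2ba and 0.07, 0.06 and 0.07 for Hist1h4i, the lowest of the 17 genes in each library. Low counts limit r, so that a low value does not show that a gene varies apart from the others. Hist2h2bb, with a level close to that of Hist1h4i at E7.0 and below it at E7.5 posterior, gave 0.19, 0.20 and 0.10.

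Of 2415 other genes at 50 CPM or more in each library, those with the highest r to the summed histone level, ranked by the lowest of 3 libraries, were H3f3b (0.21, 0.22 and 0.21 at E7.0, E7.25 and then E7.5 posterior), Ptma (0.22, 0.25 and 0.19), Dut (0.18, 0.20 and 0.16), Fbxo5, Pclaf, Nasp, Fabp5, H2afz, Gapdh and Pcna (0.14, 0.13 and 0.13). Dut removes dUTP before DNA synthesis, Pclaf binds PCNA and Nasp is a chaperone of H3, H4 and H1. The lowest values were those of Arl6ip1 (-0.23, -0.23 and -0.17), Cdc20 (-0.20, -0.16 and -0.20), Ube2c (-0.23, -0.19 and -0.15), Ttr and Rhox5. Cdc20 and Ube2c act in the exit from mitosis, and Ttr marks visceral endoderm. Mki67 itself gave -0.02, -0.03 and 0.00. All of these values are weak and are given as a description.

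Cells were grouped without the histone genes and without the lists of S, G2 and M phase genes, and clusters were named by likeness to fixed markers. Visceral endoderm-like cells, led by the lipid and retinol carriers Apoa1, Apob, Rbp4 and Ttr, had the least histone RNA in every library: 1539 CPM (1512 to 1566) in 710 cells at E7.0, 658 CPM (641 to 676) in 843 cells at E7.25 and then 474 CPM (452 to 498) in 401 cells at E7.5 posterior. Epiblast and streak-like cells, the pluripotent source of the embryo and its passage into mesoderm, stood at 2831 CPM (2816 to 2846.5) in 3178 cells, 1266 CPM (1248 to 1284) in 1744 cells and 973 CPM (964 to 982) in 4520 cells. Visceral endoderm-like cells also had less Pcna, at 126, 113 and 175 CPM, against 200.3, 187 and 241 CPM in epiblast and streak-like cells, and more mitochondrial UMIs, at a median of 4.17%, 5.34% and 6.82% against 2.26%, 2.18% and 3.36%. The part of either in the histone level was not tested.

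Mesoderm-like cells, led by Tbx6, Rspo3, Dll1 and Tcf15, stood close to epiblast and streak-like cells. At E7.0 they stood at 2793 CPM against 2831 CPM, a log2 ratio of -0.02 (-0.06 to 0.02), in 116 mesoderm-like cells, of which 51 lay in cluster 18, with a median of 19001 UMIs per cell. With the clustering at a finer resolution, which put 517 cells in the class, this ratio was 0.06 (0.04 to 0.08). At E7.25 they stood at 1133 CPM against 1266 CPM, a log2 ratio of -0.16 (-0.20 to -0.13), in 889 cells. At E7.5 posterior they stood at 910.2 CPM against 973 CPM, a log2 ratio of -0.10 (-0.12 to -0.07), in 1566 cells. Of the measured members, 1 of 19, 1 of 17 and 1 of 12 were at least 2-fold lower in mesoderm-like cells and 0 were higher, beside 1.26%, 3.02% and 2.52% lower and 2.31%, 3.11% and 2.61% higher of all genes in the 3 libraries. In each library that member was Hist3h2ba, which at E7.25 and E7.5 posterior reached 20 CPM in the epiblast and streak-like cells alone. The names rest on clusters that differ between libraries: most epiblast and streak-like cells were in clusters 6, 8 and 10 in the E7.0 library, in cluster 2 in the E7.25 library, and in clusters 1, 7 and 13 in the E7.5 posterior library. A cluster drawn mostly from 1 library may reflect that library and not a type of cell. Cluster 0, led by Lefty2, Lhx1 and Mesp1, got no name and is in neither class, although it held 1756 cells at E7.0. Cluster 13, with 690 epiblast and streak-like cells at E7.5 posterior, had 4 markers of that class among its first 10 genes. It also had 4 of paraxial mesoderm there (Aldh1a2, Hes7, Tbx6 and Dll1). The comparison of the 2 classes is limited by this naming.

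The other classes all lay above visceral endoderm-like cells. Extraembryonic mesoderm-like cells, led by Hand1, Bmp4 and Foxf1, stood at 3036 CPM (2981 to 3092) at E7.0, 1129 CPM (1102 to 1157) at E7.25 and 849.8 CPM (826 to 874) at E7.5 posterior. Node and notochord-like cells, led by Foxj1 and other cilium genes, stood at 2574 CPM (2526 to 2623) at E7.0 and 744 CPM (713 to 777) at E7.5 posterior, and with under 100 cells were not used at E7.25. Trophoblast-like cells stood at 2695.5 CPM at E7.0 and 1131 CPM at E7.25, and haemato-endothelial-like cells at 1167 CPM at E7.25. Of the clusters left without a name by the naming rule, cluster 0 (led by Lefty2, Lhx1 and Mesp1) stood at 2950 CPM at E7.0 and 718 CPM at E7.5 posterior. Cluster 9 (led by Cer1, Sox17 and Gsc) stood at 2894, 1162 and 848.6 CPM in the 3 libraries, and cluster 15 (led by Fgfbp1 and Krt19) at 1988, 848 and 646 CPM.

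The order of the libraries was the same in every class with 100 or more cells in both libraries of a pair. For E7.25 over E7.0 the log2 ratio lay between -1.43 in extraembryonic mesoderm-like and -1.16 in epiblast and streak-like cells. For E7.5 posterior over E7.25 it lay between -0.47 in visceral endoderm-like and -0.32 in mesoderm-like cells. For E7.5 posterior over E7.0 it lay between -2.24 in cluster 14 and -1.54 in epiblast and streak-like cells. Cluster 14 was shallow, with a median of 3447 UMIs per cell at E7.0, and had few mitochondrial UMIs. Hist1h2ap followed the libraries in each class: in visceral endoderm-like cells it stood at 475 CPM at E7.0, 38.9 CPM at E7.25 and then 105 CPM at E7.5 posterior, and in epiblast and streak-like cells at 761, 49.1 and 189.5 CPM. Hist1h4i lay between 13.3 and 28.3 CPM in all classes with 100 or more cells, at 19.9, 19.3 and 24.6 CPM in visceral endoderm-like cells and 23.0, 25.1 and 24.2 CPM in epiblast and streak-like cells.

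**Figure D5:**
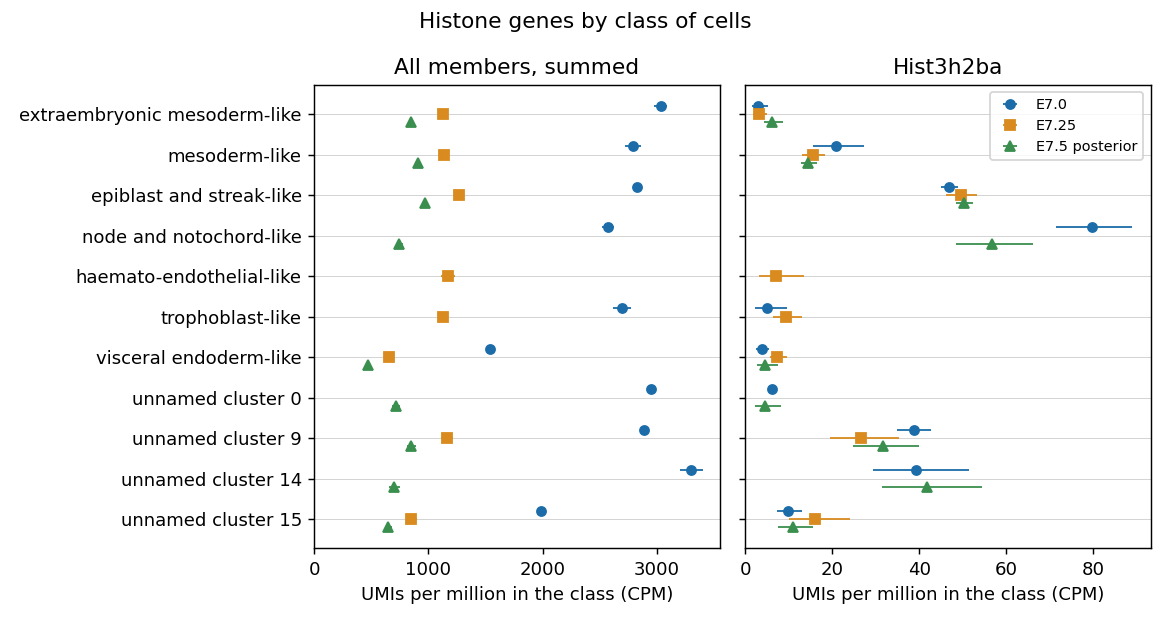
Summed CPM of the 67 histone genes (left) and CPM of Hist3h2ba (right) by class of cells, with 1 symbol per library, bars for the exact 95% Poisson interval, and only classes with 100 or more cells in that library. Visceral endoderm-like cells have the lowest sum in each library, and Hist3h2ba is highest in node and notochord-like and in epiblast and streak-like cells.

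Hist3h2ba varied more by class than by library. In epiblast and streak-like cells it stood at 46.9 CPM (44.9 to 48.9) at E7.0, 49.7 CPM (46.3 to 53.4) at E7.25 and 50.4 CPM (48.4 to 52.4) at E7.5 posterior, where the summed histone level was lower at E7.5 posterior than in the E7.0 library by a log2 ratio of -1.54. In node and notochord-like cells it stood at 79.9 CPM (71.6 to 88.9) at E7.0 and 56.7 CPM (48.4 to 66.1) at E7.5 posterior. In mesoderm-like cells it stood at 20.8 CPM (15.5 to 27.3), 15.5 CPM (13.04 to 18.3) and 14.5 CPM (12.8 to 16.5). Against epiblast and streak-like cells the log2 ratio of mesoderm-like cells was -1.17 (-1.60 to -0.77) at E7.0, -1.68 (-1.95 to -1.42) at E7.25 and -1.79 (-1.99 to -1.60) at E7.5 posterior. The gene encodes a core H2B histone. It was lower still in extraembryonic mesoderm-like cells, at 2.92, 3.15 and 6.23 CPM at E7.0, E7.25 and then E7.5 posterior, and in visceral endoderm-like cells, at 3.77, 7.39 and 4.63 CPM. In cluster 0, led by genes of nascent mesoderm, it stood at 6.11 CPM at E7.0. Its promoter, printed above, holds TATAAA and CCAAT, and its annotated transcript goes on past the stem-loop.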

How the data were processed

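Each library was deposited as a matrix of raw UMI counts per gene and cell, made by the authors with Cell Ranger 6.0.1, per the file headers. The genome build of the alignment is not given in the sources used here, and gene IDs were matched to GENCODE M21 on GRCm38 (32235 found, 50 not found). Cells were kept if they had 1000 detected genes or more and no more than 10% mitochondrial counts, predicted doublets included. These doublets were the 504, 216 and 570 cells with the highest doublet scores at E7.0, E7.25 and then E7.5 posterior. Their number was set beforehand from the number of cells, at 0.8% per 1000 cells. The automatic limit on the score gave 111, 193 and 0. Counts were summed over cells and divided by the sum over all genes. There was 1 library per group, so no test was made, and a gene is described as higher or lower at 2-fold or more among genes that reached 20 CPM in either group. Ratio intervals are exact conditional binomial intervals at the 95% level. Cells were thinned to 5000 UMIs to compare them by Pcna and Mki67. Cells were clustered (scanpy 1.11.5, leidenalg 0.10.2, 30 principal components, 15 neighbours, resolution 1) on 2000 variable genes less the histone and cell cycle genes, and a cluster was named from 16 marker lists with 3 or more markers among its 100 leading genes and no more markers of another class among its first 10. Members at 20 CPM or more in a library were named, the 15 with the highest mean in every library, with the 10 genes most like the histone sum. The genes named from the gene lists are examples. They were picked from the 3 highest and 3 lowest ratios of a list in a comparison, not all of which are given. The rule for the members used symbols alone, but the rule, the lists and the markers were set with earlier results of these data known. Epiblast, caudal epiblast and streak were joined into 1 class, and nascent, paraxial and cardiac mesoderm into another. This joining followed from earlier results on these data. The alternatives were TMM scaling (edgeR 4.0.16), other cell filters, doublets removed, other thinning and other clustering. Calculations used Python 3.11.15, numpy 2.4.6, pandas 2.3.3, scipy 1.17.1, scikit-learn 1.9.0 and igraph 0.11.9, and the ratio calculation was checked on simulated counts.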

Additional observations from a re-analysis of the deposited data

Results flagged for a closer look

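Histone UMIs were also present in the barcodes that the cell filters left out. In barcodes with under 1000 detected genes the 67 genes stood at 2648 CPM at E7.0 (2189 barcodes), 603.9 CPM at E7.25 (868 barcodes) and 708.3 CPM at E7.5 posterior (2734 barcodes). In barcodes with 1000 or more genes and over 10% mitochondrial UMIs they stood at 1670.5 CPM at E7.0 (102 barcodes), 502.7 CPM at E7.25 (111 barcodes) and 527.2 CPM at E7.5 posterior (296 barcodes). All 6 values lie far above the level of 3 UMIs, which is at most 8.04 CPM in these sets. In both sets E7.0 was highest, as in the cells kept, while E7.25 was below E7.5 posterior among barcodes with under 1000 genes and not resolved from it in the other set, where the intervals overlap (434.9 to 578 at E7.25 and 490.4 to 566.1 at E7.5 posterior).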

How the results depend on the processing

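No summed ratio between libraries and no Pcna ratio changed direction under the alternatives. With TMM scaling, which shifts every ratio over E7.0 by -0.20 for E7.25 and -0.08 for E7.5 posterior, the summed log2 ratio was -1.53 at E7.25 over E7.0, -0.15 at E7.5 posterior over E7.25 and -1.68 at E7.5 posterior over E7.0. In the same order it was -1.26, -0.36 and -1.62 without visceral endoderm, parietal endoderm and trophoblast classes, and -1.38, -0.29 and -1.67 without cells of over 25000 UMIs. With at most 5% mitochondrial UMIs it was -1.30 at E7.25 over E7.0 and -0.29 at E7.5 posterior over E7.25, and with 2000 or more genes -1.58 at E7.5 posterior over E7.0. The next 2 settings were chosen after seeing the data. Without Hist1h2ap the 3 ratios were -0.94, -0.53 and -1.47, and without members of shared 3′ ends -0.96, -0.52 and -1.48. With no CPM minimum, 7 members were 2-fold higher and 18 lower at E7.25 over E7.0, 8 higher and 18 lower at E7.5 posterior over E7.25, and 31 lower at E7.5 posterior over E7.0.

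At E7.0, E7.25 and then E7.5 posterior the Pcna ratio was 0.76, 0.74 and 0.54 with cells thinned to 3000 UMIs. In unthinned cells it was 0.66 at E7.0 and 0.52 at E7.5 posterior. With bins of 2 or more against 0, chosen after seeing the data, it was 0.37, 0.40 and 0.31. The Mki67 ratio had no stable sign after E7.0: at 3000 UMIs it was 0.010 at E7.25 and then 0.21 at E7.5 posterior, and in unthinned cells -0.045 at E7.25 and then 0.060 (0.026 to 0.094) at E7.5 posterior. With 2 or more against 0 it was -0.077 at E7.0 and -0.052 at E7.25. The ratio of mesoderm-like over epiblast and streak-like cells was 0.060, -0.20 and -0.054 at resolution 2, and 0.031, -0.064 and -0.056 with cycle genes kept, so that its sign turned at E7.0. The cause was not tested for any of these. Removal of doublets was not run for this ratio at E7.0, since under 100 mesoderm-like cells remained. Leaving aside the settings chosen after seeing the data, 64 values stayed within the interval, or within 1.5 times the count, and 31 did not. No paired analysis was possible because each group is 1 library.

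With 1 library per group, the spread between embryos is unknown. Stage, library, kit version and dissected region cannot be told apart. A protocol that primes on poly(A) sees histone RNA only in part, and copies with like 3′ ends share reads. Members under 1 CPM rest on few UMIs.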

Other observations

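Cluster 14, which no marker list named, was led by AY036118, Gm42418 and Rps26 and held Hist1h4d among its 10 leading genes, although histone genes were not used to form the clusters. Nusap1 and Ube2c, of the list of G2 and M phase genes, were also among these 10. The cluster had 342 cells at E7.0 and 295 at E7.5 posterior, with a median of 3447 and 4108 UMIs per cell and a median of 0.526% and 0.107% mitochondrial UMIs. Its histone sum was 3306 CPM (3210 to 3404.5) at E7.0, the highest of the classes with 100 or more cells in that library, and 699 CPM (654 to 746) at E7.5 posterior, below most classes there. Its Mki67 level was 28.9 CPM at E7.0 and 27.8 CPM at E7.5 posterior, against 139 CPM and 141 CPM over all cells of these libraries. Its Pcna level was 182 CPM at E7.0 and 197 CPM at E7.5 posterior, against 183 CPM and 225 CPM over all cells. Hist1h4d stood at 361 CPM in this cluster at E7.0 and at 33.2 CPM at E7.5 posterior, against 209.6 CPM and 46.1 CPM over all cells.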
